A study of Mus musculus with 12 samples.

Results

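The genes described here are 10 regulators and effectors of the PERK-ATF4 stress pathway: Eif2ak3, Atf4, Atf5, Atf3, Ddit3, Ddit4, Trib3, Chac1, Sesn2 and Nupr1. They were chosen by name, with earlier results of these data known. Their reads were taken from a brain table and a neurosphere table that each list 25655 genes, 21924 of them with an exon length above 0. Of the 10 symbols, 9 matched a row directly. Ddit3 was matched by its gene identifier, ENSMUSG00000025408, since the tables list that symbol as 2 numbered entries with different identifiers. The other entry had 0 exon reads over the 12 libraries.

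RNA depleted of ribosomal RNA was sequenced from 12 mouse libraries, 3 in each of 4 groups. CKO brains were whole brains at embryonic day 15 with the genotype label (P)RR_CKO and titles marked fy/cre, and control brains, of the same day, were labelled Wildtype with titles marked fy/-. CKO neurospheres and control neurospheres, which carry those same genotype labels, were primary cultures of neural stem cells from the forebrain at embryonic day 16. All 12 libraries were labelled C57BL/6J and male. The knockout removes the (pro)renin receptor, encoded by Atp6ap2, an accessory protein of the vacuolar proton pump, in neural stem cells. The sources used here do not give the promoter that drives Cre, or whether control animals carry a floxed allele. Whole brain holds many cells outside the targeted lineage. The labels do not say that replicates came from separate animals or cultures, so the p-values measure only the spread between these libraries.

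PERK is a kinase in the membrane of the endoplasmic reticulum that is activated when unfolded proteins accumulate there. It phosphorylates the translation initiation factor eIF2alpha, which lowers protein synthesis in general but favours translation of a few mRNAs, among them that of the transcription factor ATF4. Kinases that sense amino acid shortage, heme shortage and double-stranded RNA act on the same site, and the shared output is called the integrated stress response. ATF4 raises genes of amino acid supply and, under lasting stress, the factors CHOP and ATF3 and the effectors TRIB3, CHAC1, SESN2 and DDIT4.

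Exon reads per library ranged from 5738810 to 6154400 in CKO brains, 5669338 to 6675874 in control brains, 13167498 to 18636787 in CKO neurospheres and 12382975 to 14050572 in control neurospheres. Reads inside genes but outside exons, called intron reads here, were 63.8 to 65.5% of the reads assigned to genes in brain libraries and 7.64 to 14.1% in neurosphere libraries. Atp6ap2 held 353 to 421 exon reads in CKO brains and 378 to 497 in control brains, which overlap, and 699 to 895 in CKO neurospheres against 1198 to 1338 in control neurospheres, which do not. Control neurosphere 1 held 1 exon read over 4 Y-linked genes, although it is labelled male, while the other 11 libraries held 1453 to 2992. It also stood apart from controls 2 and 3 over all genes, with a chi-square per degree of freedom of 57.8 and 50.9, against 5.72 between controls 2 and 3. CKO neurosphere 1 stood apart from CKO 2 and 3 in the same way (30.6 and 37.4, against 12.3). Neurosphere exon results of the 10 genes are given with all 6 libraries, and also without control 1 and without both libraries numbered 1 where either fit added or ended a call or moved a log2 value by over 1.5 times. Summed over 13 neural stem cell and radial glia markers, the libraries held 10050 to 10710 CPM (reads scaled to the library's total with TMM factors within a tissue) in CKO neurospheres and 9082 to 10850 in control neurospheres, more than the 1098 to 1777 and 2118 to 2520 CPM of 14 neuron markers. No gene of these 2 lists was at 0 in all 3 libraries of a group.

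Levels between genes and tissues are given as RPKM, the CPM of exon reads divided by the listed exon length in kilobases and scaled over all 12 libraries. In control brains Atf4 had the highest level of the 10 genes, 39.2 ± 1.80 RPKM (SD, n = 3), followed by Ddit4 at 27.3 ± 2.81. Atf5 (12.5 ± 7.77) and Eif2ak3 (8.84 ± 0.414) came next and overlapped, and Ddit3 (5.97 ± 0.941), Sesn2 (2.07 ± 0.119), Chac1 (0.890 ± 0.431), Nupr1 (0.638 ± 0.302), Trib3 (0.324 ± 0.0643) and Atf3 (0.309 ± 0.0387) were lower. Among these, Chac1 and Nupr1 overlapped over libraries, as did Nupr1, Trib3 and Atf3. In control neurospheres Ddit4 led at 143 ± 30.7 RPKM, with Atf4 at 57.8 ± 5.59, Atf5 at 52.1 ± 19.98 and Sesn2 at 29.2 ± 13.2. Atf3 was again the lowest, at 0.913 ± 0.537.

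Control neurospheres held more RNA of every member than control brains. All 10 members were called higher, meaning an edgeR adjusted p below 0.05 (Benjamini-Hochberg over all genes tested), in a comparison in which 34.9% of 14415 genes were called higher and 35.5% lower. The log2 difference was greatest for Sesn2, 3.82 ± 0.30 (SE), Nupr1, 3.39 ± 0.55, and Trib3, 3.11 ± 0.54, and smallest for Eif2ak3, 0.28 ± 0.09 (edgeR adjusted p = 7.0e-07, 1.7e-04, 2.9e-04 and 0.0180). Without control neurosphere 1 the Atf3 call ended, with a log2 difference of 1.01 in place of 1.55 (adjusted p = 0.0748 in place of 0.0188). Without control brain 1 the calls of Atf3 (1.47, adjusted p = 0.0579) and Eif2ak3 (0.27, adjusted p = 0.0516) ended. Culture, embryonic day and dissection differ together between these groups and cannot be told apart.

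The comparison of CKO with control brain asks how these genes differ between brains of the 2 genotype labels. Atp6ap2 exon reads overlapped between these groups, so these reads do not show the deletion in whole brain. In CKO brains 4 of the 9 members tested rose: Chac1, Sesn2, Eif2ak3 and Atf4. Over all 13557 genes tested, 0.243% were called higher and 0.199% lower. No member was called lower by edgeR or DESeq2, and 0 had a lower level at an unadjusted p below 0.05. In 7 of the 10 members every CKO brain lay above every control brain, an order seen in 7.23% of all genes tested, with 7.2% in the opposite order. The median log2 fold change of the 9 tested members was 0.80, against 0.0029 over all genes. Since the members were chosen with earlier results of these data known, the shares over all genes describe and do not test the set. In bulk RNA, more cells of a type and more RNA per cell cannot be told apart.

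Eif2ak3 encodes PERK itself (chromosome 6 from 70844515 to 70905245 in GENCODE M21 on GRCm38, matched by gene identifier; the tables list other positions for each member, on a build that they do not name). It held 67.8, 66.9 and 66.8 CPM in CKO brains, against 43.1, 44.3 and 47.7 CPM in control brains. The CKO values were tight and all above the control values. This is a log2 fold change of 0.58 ± 0.08 (SE, 3 libraries per group, edgeR adjusted p = 0.0137). Atf4, the central transcription factor of the pathway (chromosome 15 from 80255184 to 80257541), held 111, 91.6 and 114 CPM in CKO brains, against 74.5, 70.0 and 68.8 CPM in control brains. CKO brain 2 was the lowest of its group and still above each control, and the log2 fold change was 0.57 ± 0.09 (edgeR adjusted p = 0.0327).

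The related bZIP factor Atf5, whose mRNA is also favoured when eIF2alpha is phosphorylated (chromosome 7 from 44812256 to 44816658), was not called. It held 35.1, 25.7 and 27.4 CPM in CKO brains, against 15.4, 18.2 and 45.3 CPM in control brains. Control brain 3 was the highest of the 6, so the groups overlapped, with a log2 fold change of 0.15 ± 0.46 (edgeR adjusted p = 0.966). Without control brain 3 it was 0.81, still not called (adjusted p = 0.226).

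Atf3, a bZIP factor induced by many stresses (chromosome 1 from 191170296 to 191218039), held 2.23, 2.89 and 3.12 CPM in CKO brains, against 0.605, 0.708 and 0.787 CPM in control brains. The groups were far apart but rested on 13 to 18 reads per CKO library and 4 to 5 per control library. Its log2 fold change of 1.94 ± 0.39 was not called (edgeR adjusted p = 0.0729). Ddit3, which encodes CHOP, a factor linked to cell death under lasting stress (chromosome 10 from 127290774 to 127296288), held 9.07, 9.78 and 10.4 CPM in CKO brains, against 4.84, 5.31 and 6.61 CPM in control brains. These groups did not overlap either, and the log2 fold change of 0.80 ± 0.20 was not called (edgeR adjusted p = 0.164). Ddit3 lies across from Mars1, an aminoacyl-tRNA synthetase gene on the opposite strand, which held 78.0 to 89.8 CPM in CKO brains and 57.6 to 65.9 CPM in control brains. The sources used here do not give the strand setting of the counting, so reads of the overlapping stretch cannot be told apart. The same holds for Atf5 and Nup62.

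Among the effectors, Chac1 had the largest difference. CHAC1 breaks down glutathione (chromosome 2 from 119351229 to 119354381). Chac1 held 11.1, 7.54 and 13.01 CPM in CKO brains, against 1.36, 0.886 and 2.36 CPM in control brains. Those values rested on 65, 47 and 75 exon reads in CKO brains and only 9, 5 and 15 in control brains. CKO brain 2 was the lowest of its group and still well above control brain 3, the highest control. This is a log2 fold change of 2.75 ± 0.34 (edgeR adjusted p = 0.0105), or 6.71-fold. Sesn2, a leucine-binding inhibitor of the growth kinase complex mTORC1 (chromosome 4 from 132492032 to 132510501), held 21.4, 16.4 and 20.8 CPM in CKO brains, against 8.02, 7.44 and 7.24 CPM in control brains. The control values were tight and all below the CKO values, for a log2 fold change of 1.36 ± 0.16 (edgeR adjusted p = 0.00946).

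Trib3, a pseudokinase that feeds back on ATF4 and CHOP (chromosome 2 from 152337422 to 152344032), held 2.40, 2.57 and 2.78 CPM in CKO brains, against 0.757, 0.531 and 0.787 CPM in control brains. As for Atf3, the groups did not overlap and the counts were low, with 14 to 16 reads per CKO library and 3 to 5 per control library. The log2 fold change of 1.86 ± 0.39 was not called (edgeR adjusted p = 0.0858). Ddit4, which encodes REDD1, another mTORC1 inhibitor (chromosome 10 from 59949669 to 59951834), held 44.2, 37.4 and 59.1 CPM in CKO brains, against 45.7, 55.8 and 49.6 CPM in control brains. These groups overlapped (log2 fold change -0.10 ± 0.16, edgeR adjusted p = 0.920). Nupr1, a small stress-induced nuclear protein (chromosome 7 from 126623249 to 126630861), held 0.513, 1.12 and 0.694 CPM in CKO brains, against 0.303, 0.886 and 0.787 CPM in control brains, or 2 to 7 reads per library. It did not pass the filter on low counts and was not tested, and its groups overlapped.

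**Figure D1:**
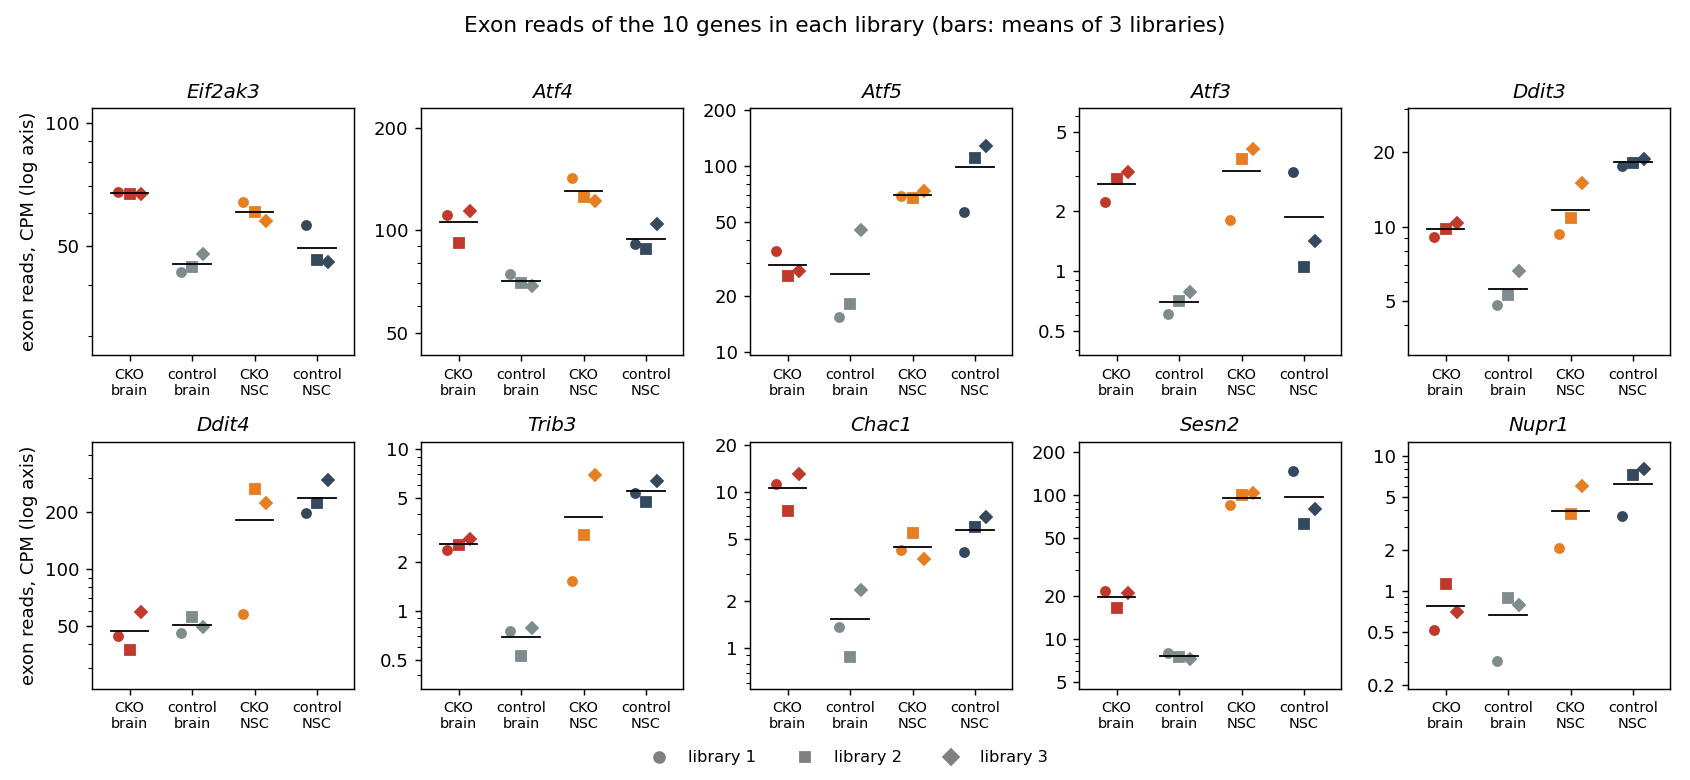
Exon reads of each gene in each library, in CPM on a log axis that differs between panels, with 1 symbol per library and a bar at the mean of 3 libraries. CKO stands left of control for brain and then for neurospheres (NSC). The 3 CKO brains lie above the 3 control brains in 7 panels, and in Atf5, Sesn2 and Nupr1 all 6 neurosphere libraries lie above all 6 brain libraries.

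The brain calls depended on the fit and on single libraries. When the same contrast came from the fit of all 12 libraries, none of the 4 was called by edgeR, with adjusted p = 0.0780 for Chac1, 0.242 for Eif2ak3, 0.285 for Atf4 and 0.438 for Sesn2, although the log2 fold changes were 2.75, 0.57, 0.56 and 1.36. In that fit 1 gene of 14415 was called higher and 0 lower, with 522 at an unadjusted p below 0.05. Leaving out control brain 3 ended all 4 calls (adjusted p = 0.0516 for Chac1, 0.0728 for Eif2ak3, 0.213 for Atf4 and 0.0823 for Sesn2). Leaving out control brain 1 ended those of Chac1 (0.0565), Eif2ak3 (0.0736) and Atf4 (0.0835), and leaving out control brain 2 those of Eif2ak3 (0.0742) and Atf4 (0.169). Without CKO brain 3 the calls of Eif2ak3 (0.0652) and Atf4 (0.0975) ended, and without CKO brain 1 that of Atf4 (0.0518). Each log2 fold change kept its direction in these fits. DESeq2 called 4 members higher, with adjusted p = 2.2e-06 for Chac1, 8.3e-05 for Sesn2, 0.00172 for Eif2ak3 and 7.0e-04 for Atf4. The authors' deposited table gives signed fold changes of 6.70 for Chac1 (FDR 2.7e-10), 2.57 for Sesn2 (1.1e-07), 1.49 for Eif2ak3 (4.1e-05), 1.48 for Atf4 (1.5e-04), 3.84 for Atf3 (0.0145) and 3.61 for Trib3 (0.0271), and an FDR of 0.111 for Ddit3.

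Some markers of other cells also differed between the same brains. Summed over 15 microglia and macrophage markers, CKO brains held 148 to 182 CPM and control brains 103 to 127 CPM, with 13 of 14 tested markers at a positive log2 fold change and 1, Fcrls, called (1.30 ± 0.20, edgeR adjusted p = 0.0293). Summed over 9 astrocyte markers, CKO brains held 653 to 710 CPM and control brains 696 to 749 CPM, which overlap. Of 8 tested, 3 fell, Aldh1l1, Aldoc and Ndrg2, while 3 had a positive log2 fold change. The 14 neuron markers summed to 6631 to 6994 CPM in CKO brains and 7434 to 7885 CPM in control brains. Of these 14, 1 was called lower and 3 had a positive log2 fold change. Over all genes tested in brain, 0.243% were called higher and 0.199% lower. No marker of these 3 lists was at 0 in all 3 libraries of either group. Their part in the members' differences was not tested.

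The promoters of Atf3, Chac1 and Nupr1 are shown because they hold a match to the CARE motif, a composite element bound by ATF4 with a C/EBP partner, and because Chac1 and Atf3 had the largest exon log2 fold changes in CKO brains. RefSeq promoters on GRCm38.p6, 250 bases before to 50 after the start of a gene, were available for all 10 members in 11 entries, since Atf5 has 2. They were searched on both strands for TGATGNAAN (CARE), for TGACGTCA (the cAMP response element) and for the ER stress element. The CARE letters occurred in 4 of the 10 members and in 3.95% of all 32851 promoters. The other 2 motifs occurred in 0 members, and in 1.79% and 0.119% of all promoters. The 250 bases before each RefSeq start are given 5′ to 3′ on its own strand, with the match in capitals, as the reverse complement of the letters searched. The match begins 111 bases before the start in Atf3 (chr1:191183334-191183583, minus strand) and in Nupr1 (chr7:126625471-126625720, minus strand), and 194 bases before it in Chac1 (chr2:119350992-119351241, plus strand). The RefSeq start of Chac1 lies 13 bases inside the GENCODE gene, while those of Atf3 and Nupr1 lie 34706 and 5391 bases inside it, so these 2 stretches precede an internal start and not the first base of the gene given above.
Chac1: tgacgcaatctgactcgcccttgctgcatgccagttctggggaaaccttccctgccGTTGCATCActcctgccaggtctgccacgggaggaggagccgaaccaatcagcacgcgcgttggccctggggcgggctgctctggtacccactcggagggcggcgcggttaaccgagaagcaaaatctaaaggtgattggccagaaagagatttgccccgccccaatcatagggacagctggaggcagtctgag
Atf3: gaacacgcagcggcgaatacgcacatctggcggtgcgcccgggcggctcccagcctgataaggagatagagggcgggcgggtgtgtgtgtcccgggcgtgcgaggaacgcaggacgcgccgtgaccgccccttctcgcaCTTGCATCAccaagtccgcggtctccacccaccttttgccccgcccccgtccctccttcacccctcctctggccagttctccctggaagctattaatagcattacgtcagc
Nupr1: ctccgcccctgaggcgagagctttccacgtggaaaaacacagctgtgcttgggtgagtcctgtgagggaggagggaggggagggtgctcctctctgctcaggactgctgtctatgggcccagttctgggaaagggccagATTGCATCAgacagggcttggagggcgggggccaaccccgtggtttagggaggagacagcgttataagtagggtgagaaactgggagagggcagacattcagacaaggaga
The fourth match, in Trib3, begins at base 14 after the RefSeq start, and is shown with 10 bases on either side (chr2:152344029-152344057, minus strand). That RefSeq start (152344060) lies before the first base of the GENCODE gene (152344032) on this strand, and the match also precedes that first base.
Trib3: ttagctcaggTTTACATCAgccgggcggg
A match describes letters in this window only. Of the 4 genes that hold it, Chac1 was called higher in CKO brains, Atf3 and Trib3 had non-overlapping groups, and Nupr1 overlapped, while Sesn2, Eif2ak3 and Atf4 were called without one in this window.

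The neurosphere comparison asks the same question in cultured stem cells, where every CKO library held fewer Atp6ap2 reads than every control. In CKO neurospheres 1 of the 10 members rose, Atf4, in a comparison in which 14.7% of 13316 genes were called higher and 12.0% lower. No member was called lower by edgeR, with 1 at an unadjusted p below 0.05, while DESeq2 called 1 lower, Ddit3. In 2 members every CKO neurosphere lay above every control (25.3% of all genes tested), in 1 every CKO neurosphere lay below (22.8%), and 7 overlapped. The median log2 fold change of the members was -0.36, against -0.02 over all genes.

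Atf4 held 143, 126 and 122 CPM in CKO neurospheres, against 91.4, 87.8 and 105 CPM in control neurospheres. The groups did not overlap, and the log2 fold change was 0.46 ± 0.11 (edgeR adjusted p = 0.0261). The call remained without control 1 (0.43, adjusted p = 0.0311) and without both libraries numbered 1 (0.36, adjusted p = 0.0150), and ended without control 2 (0.41, 0.103), control 3 (0.54, 0.0686), CKO 2 (0.48, 0.0875) or CKO 3 (0.51, 0.0567). Eif2ak3 held 64.0, 60.4 and 57.4 CPM in CKO neurospheres, against 56.2, 46.1 and 45.5 CPM in control neurospheres. Control 1 was the closest to the CKO libraries. The log2 fold change was 0.30 ± 0.11 (edgeR adjusted p = 0.0958) with all 6 libraries and 0.40 ± 0.09 without control 1, where it was called (adjusted p = 0.0183), as it was without both libraries numbered 1 (0.36 ± 0.08, 0.00913).

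Ddit3 lay on the other side. It held 9.38, 10.9 and 14.97 CPM in CKO neurospheres, against 17.7, 18.1 and 18.8 CPM in control neurospheres. All 3 CKO libraries were below all 3 controls, with a wide spread among the CKO libraries. The log2 fold change of -0.63 ± 0.19 missed the threshold in edgeR (adjusted p = 0.0536), and passed it in DESeq2 (-0.64, adjusted p = 0.0229), without CKO 3 (-0.84, edgeR adjusted p = 0.0406) and without both libraries numbered 1 (-0.53, 0.0351), but not without control 1 (-0.66, 0.0586). Mars1, on the opposite strand, rose in CKO neurospheres (0.53 ± 0.11, edgeR adjusted p = 0.0193), as did Nup62, across from Atf5 (0.90 ± 0.11, 0.00876).

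Besides Eif2ak3 and Ddit3, 3 members gained a call without libraries numbered 1. These fits also called more of all genes than the 14.7% higher and 12.0% lower with all 6 libraries. The shares were 21.1% higher and 17.7% lower without control 1, and 28.1% and 27.3% without both libraries numbered 1. Atf5 held 69.5, 67.3 and 73.3 CPM in CKO neurospheres, against 56.6, 111 and 128 CPM in control neurospheres. Control 1 was the lowest of the 6, and controls 2 and 3 were above all CKO libraries. Its log2 fold change was -0.49 ± 0.28 (edgeR adjusted p = 0.226) with all libraries, -0.78 ± 0.10 (adjusted p = 0.00291) without control 1, and -0.76 ± 0.09 (adjusted p = 5.8e-04) without both libraries numbered 1. Atf3 held 1.81, 3.63 and 4.09 CPM in CKO neurospheres, against 3.14, 1.05 and 1.42 CPM in control neurospheres. CKO 1 was the lowest of its group and control 1 the highest of its own. Its log2 fold change was 0.76 ± 0.51 (edgeR adjusted p = 0.293), 1.35 ± 0.47 without control 1 (adjusted p = 0.0666), and 1.63 ± 0.32 (adjusted p = 0.00444) without both libraries numbered 1.
Sesn2 held 85.5, 100.3 and 103 CPM in CKO neurospheres, against 147, 62.5 and 80.0 CPM in control neurospheres. Control 1 was the highest of the 6, and the other 2 controls were the lowest. With all libraries the log2 fold change was -0.0036 ± 0.31 (edgeR adjusted p = 0.994). It was 0.42 ± 0.14 without control 1 (adjusted p = 0.0615) and 0.51 ± 0.12 without both libraries numbered 1 (adjusted p = 0.0103).

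The other 4 members overlapped between the groups and were not called in these fits. Chac1 held 4.24, 5.44 and 3.71 CPM in CKO neurospheres, against 4.13, 5.96 and 6.89 CPM in control neurospheres (log2 fold change -0.34 ± 0.28, edgeR adjusted p = 0.386). Without control 1 the Chac1 value was -0.53 ± 0.25 (adjusted p = 0.146). Trib3 held 1.53, 2.97 and 6.95 CPM in CKO neurospheres, against 5.36, 4.75 and 6.39 CPM in control neurospheres (-0.54 ± 0.52, adjusted p = 0.466). The CKO libraries of Trib3 spread over a wider range than the controls on both sides. Ddit4 held 58.1, 263 and 222 CPM in CKO neurospheres, against 197, 222 and 293 CPM in control neurospheres (-0.39 ± 0.51, adjusted p = 0.590). Nupr1 held 2.08, 3.68 and 5.94 CPM in CKO neurospheres, against 3.597, 7.17 and 7.95 CPM in control neurospheres (-0.68 ± 0.46, adjusted p = 0.298). CKO neurosphere 1 was the lowest of all 6 libraries in Trib3, Ddit4 and Nupr1. Without both libraries numbered 1 the log2 fold change was -0.20 ± 0.42 for Trib3 and -0.086 ± 0.15 for Ddit4 (edgeR adjusted p = 0.704 and 0.661).

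In the authors' deposited table no member had an FDR below 0.05 in neurospheres, and the lowest was 0.110, for Atf4. Cell type markers also moved in neurospheres. Summed over 10 pericyte and meningeal fibroblast markers, CKO neurospheres held 66.1 to 1453 CPM and control neurospheres 26.4 to 64.7 CPM, with Kcnj8 at 0 in all 3 controls. Summed over 11 oligodendrocyte lineage markers, CKO neurospheres held 1563 to 1737 CPM, with Mag at 0 in all 3, and control neurospheres 1920 to 4048 CPM. Their part in the members' values was not tested.

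The difference between the CKO effects in the tissues was tested in the fit of all 12 libraries. For 4 of the 10 members the effect was lower in neurospheres than in brain: Chac1, Ddit3, Sesn2 and Trib3. Of 14415 genes tested, 6.06% had a lower and 7.21% a higher effect in neurospheres. No member had a higher effect, and all 4 members at an unadjusted p below 0.05 were those named. The difference, neurospheres minus brain, was -3.09 ± 0.48 (SE, log2 scale) for Chac1 (edgeR adjusted p = 0.00500) and -1.43 ± 0.27 for Ddit3 (adjusted p = 0.00953). Both were called without any one of the 12 libraries, with adjusted p up to 0.0203 for Chac1 and 0.0312 for Ddit3.

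For Sesn2 the difference was -1.36 ± 0.39 (edgeR adjusted p = 0.0428), and for Trib3 -2.40 ± 0.72 (adjusted p = 0.0482). Both lay close to the threshold. Without control neurosphere 1 they were -0.99 ± 0.20 (adjusted p = 0.00481) and -2.49 ± 0.77 (adjusted p = 0.0341), and without both neurosphere libraries numbered 1 they were -0.89 ± 0.20 (0.00408) and -2.10 ± 0.58 (0.0150). The first of these fits gave 14.9% of 14256 genes a lower effect in neurospheres and 13.2% a higher one, and the second 19.1% and 15.4% of 14217. The Sesn2 call ended without any one of the other 10 libraries than control neurospheres 1 and 2 (adjusted p = 0.0520 to 0.0971). The Trib3 call ended without any one of the other 9 than control neurosphere 1 and CKO neurospheres 1 and 3 (0.0730 to 0.104). For Atf4 the difference was -0.10 ± 0.15 (adjusted p = 0.674), for Eif2ak3 -0.27 ± 0.13 (0.180), for Atf3 -1.19 ± 0.67 (0.254), for Atf5 -0.64 ± 0.53 (0.437), for Nupr1 -0.94 ± 0.81 (0.460) and for Ddit4 -0.28 ± 0.60 (0.788). Without control neurosphere 1 the differences were -0.66 for Atf3, -0.98 for Atf5, -0.19 for Atf4 and -0.46 for Ddit4, and without both libraries numbered 1 they were -0.36, -0.95, -0.24 and -0.018, none of them called by edgeR. A p above the threshold does not show that the effects of these 6 are alike.

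**Figure D2:**
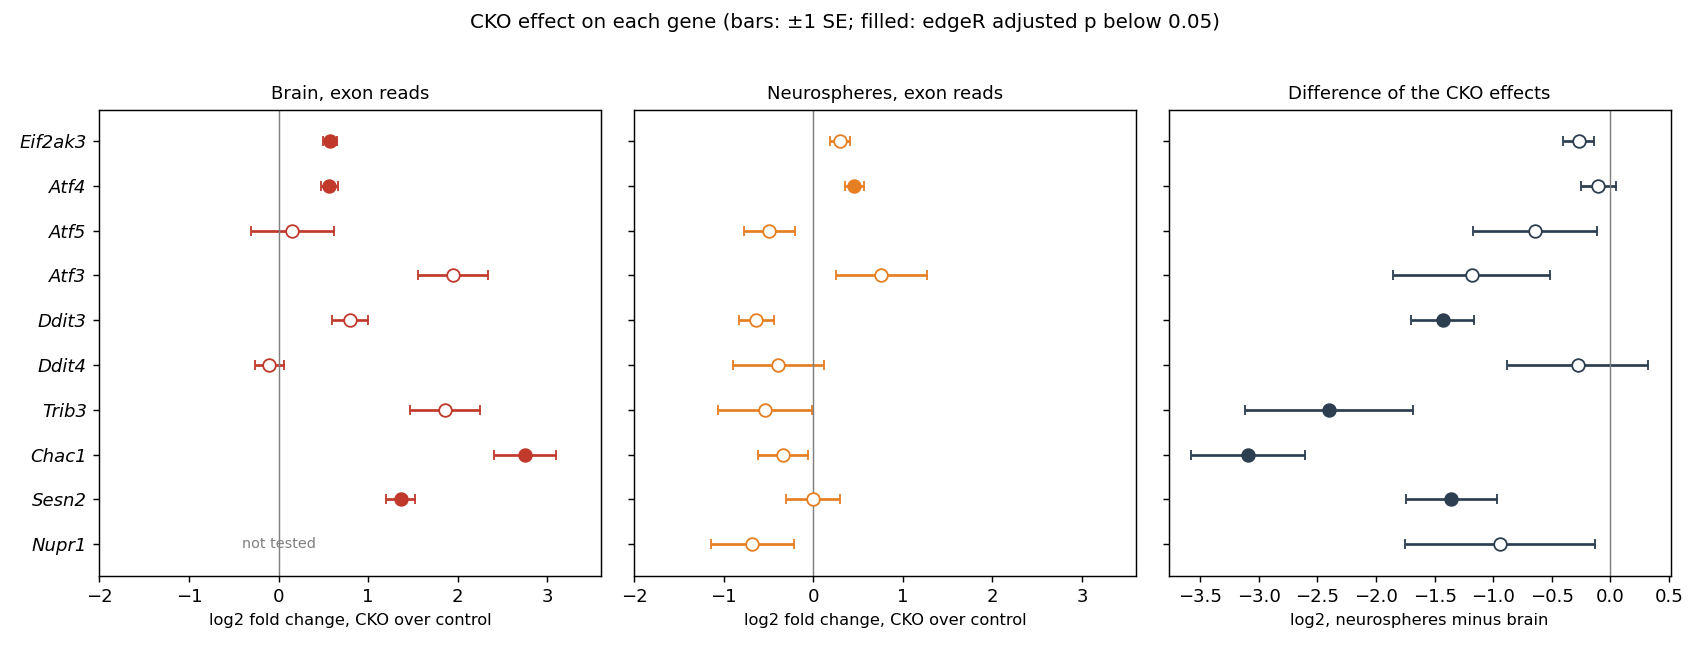
The CKO effect on exon reads of each gene in brain (left), in neurospheres (middle) and the difference of the effects (right), as log2 values with bars of 1 standard error. Filled points have an edgeR adjusted p below 0.05. In brain Chac1, Sesn2, Eif2ak3 and Atf4 are filled to the right of 0, in neurospheres Atf4 alone, and on the right Chac1, Ddit3, Sesn2 and Trib3 are filled to the left of 0.

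The order of the groups followed from these values. For Chac1, CKO brains held 4.38 to 7.53 RPKM, all above CKO neurospheres (2.38 to 3.51), while control neurospheres (2.64 to 4.46) overlapped both and control brains were the lowest (0.516 to 1.36). For Atf4, CKO neurospheres were the highest (74.4 to 87.2 RPKM), CKO brains (50.5 to 62.4) and control neurospheres (53.9 to 64.2) overlapped, and control brains were the lowest (37.6 to 41.2). For Eif2ak3, CKO brains (13.1 to 13.2 RPKM) and CKO neurospheres (12.5 to 13.9) overlapped above control neurospheres (9.97 to 12.1) and control brains (8.49 to 9.30). For Sesn2 all neurosphere libraries (19.0 to 44.1 RPKM) were above CKO brains (4.48 to 5.79).

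Intron reads come largely from RNA that is not yet spliced, and give a separate count for each gene. For Ddit3 and Mars1, and for Atf5 and Nup62, which overlap, intron reads cannot be assigned to 1 gene without the strand setting. In CKO brains 2 of 9 tested members rose in intron reads, Eif2ak3 and Trib3, where 0.143% of 14024 genes were called higher and 0.164% lower. Eif2ak3 held 57.8, 59.3 and 58.4 intron CPM in CKO brains, against 39.9, 37.6 and 39.8 in control brains. The groups were as tight and as far apart as in exon reads. The log2 fold change was 0.58 ± 0.07 (edgeR adjusted p = 0.00695), and the call ended without control brain 1 (0.60, 0.0669) or control brain 3 (0.59, 0.0524).

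Trib3 held 11, 19 and 17 intron reads in CKO brains, against 0, 1 and 2 in control brains. The summed ratio was 16.8-fold, with an exact counting interval of 5.41 to 84.5 (95%, counting error only). The fitted log2 fold change was 3.88 ± 0.61 (edgeR adjusted p = 0.0267). The call ended without any of the 3 control brains (adjusted p = 0.122, 0.1502 and 0.104 without control 1, 2 and 3), without CKO brain 2 (0.0669) and without CKO brain 3 (0.0692).

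The other members were not called in brain intron reads. Chac1 held 15, 11 and 16 intron reads in CKO brains, against 2, 4 and 2 in control brains (log2 fold change 2.40 ± 0.47, edgeR adjusted p = 0.0721). Ddit3 held 13.8, 11.4 and 15.1 intron CPM in CKO brains, against 8.90, 9.14 and 9.03 in control brains (0.57 ± 0.13, adjusted p = 0.155). Atf3 (1.57 ± 0.47, 0.332) and Sesn2 (0.92 ± 0.34, 0.553) had non-overlapping groups as well, though CKO brain 2 and control brain 3 nearly met in Sesn2, at 3.42 and 3.40 CPM, while Atf4 (0.28 ± 0.24, 0.894), Atf5 (0.76 ± 0.43, 0.779) and Ddit4 (-0.11 ± 0.36, 0.982) overlapped. Nupr1 was not tested.

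In neurosphere intron reads 6 members passed the filter and edgeR called 0, with 1, Atf4, at an unadjusted p below 0.05. There 1.25% of 11967 genes were called higher and 0.769% lower. Atf4 held 28.0, 14.7 and 23.2 intron CPM in CKO neurospheres, against 14.96, 8.83 and 10.6 in control neurospheres (log2 fold change 0.91 ± 0.35, edgeR adjusted p = 0.174). Without both libraries numbered 1, Sesn2 was called higher (0.96 ± 0.20, adjusted p = 4.7e-04), against 0.11 ± 0.41 (0.904) with all 6, in a fit that called 16.3% of 11956 genes higher and 16.1% lower. The intron log2 fold change of Eif2ak3 was 0.21 ± 0.27 with all 6 libraries and 0.56 ± 0.23 without control 1 (adjusted p = 0.698 and 0.132), neither of them called.

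Whether exon and intron reads changed by different amounts was tested within libraries. In brain edgeR called 0 of 9 members, with 1 at an unadjusted p below 0.05 (0.016% of 12522 genes called higher, 0.0319% lower). That member was Trib3, with an exon minus intron difference of -1.97 ± 0.81 on the log2 scale (adjusted p = 0.999). For Eif2ak3 the difference was 0.0015 ± 0.10. In neurospheres edgeR called 0 of 6, with 1 at an unadjusted p below 0.05 (0.0612% of 11434 genes called higher, 0.0262% lower). It was Ddit3, at -0.59 ± 0.19 (adjusted p = 0.193), and it was called without both libraries numbered 1 (-0.74 ± 0.19, adjusted p = 0.00356), where 5.71% of 11409 genes were called higher and 6.9% lower. Ddit3 intron reads themselves had a log2 fold change of -0.04 ± 0.19 in neurospheres. They numbered 110 to 219 per neurosphere library, against 135 to 265 exon reads. Some may be reads of Mars1 on the opposite strand, so the Ddit3 exon minus intron value may not describe Ddit3 alone.

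**Figure D3:**
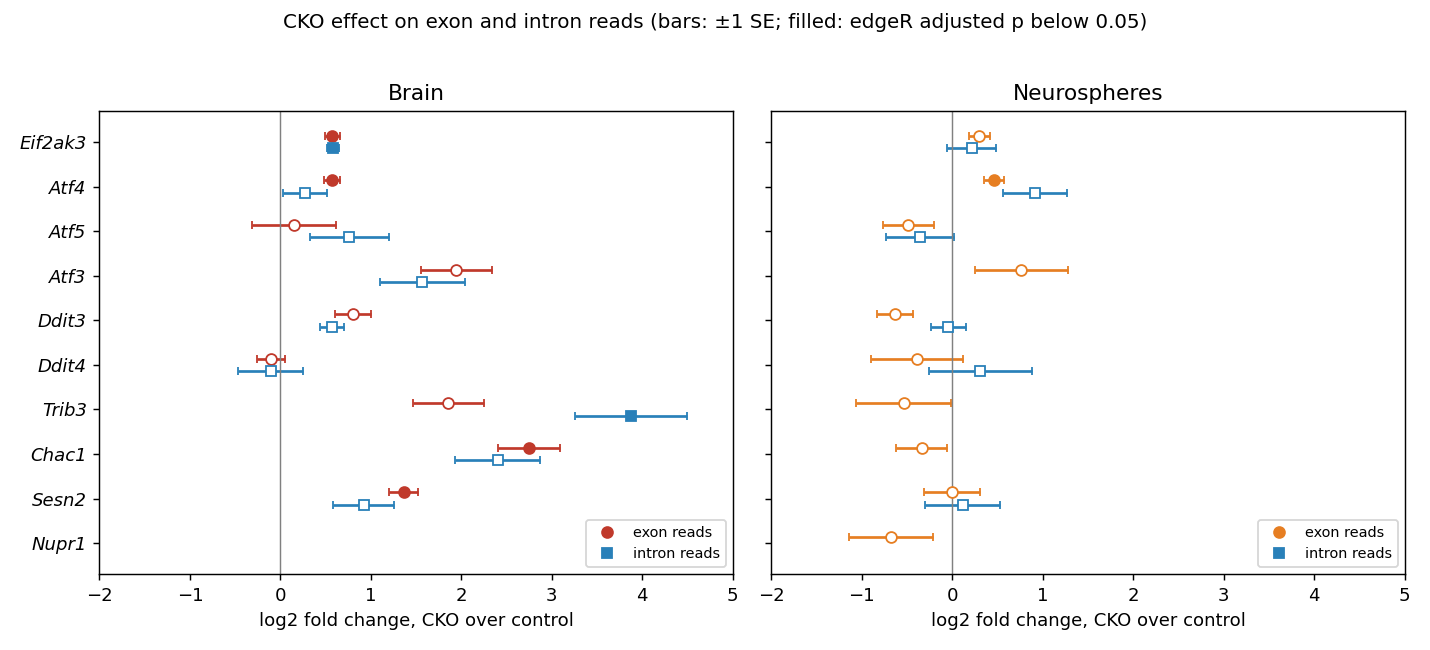
The CKO effect on exon reads (circles) and intron reads (squares) of each gene in brain and in neurospheres, as log2 fold changes with bars of 1 standard error, filled where the edgeR adjusted p is below 0.05. Genes without a symbol did not pass the filter on low counts. In brain the exon and intron points of Eif2ak3 lie at 0.58 and 0.58, and the intron point of Trib3, at 3.88, lies right of its exon point at 1.86.

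Other genes of the pathway were counted in lists, also chosen with earlier results of these data known. Among other targets of ATF4, 10 of 41 tested rose in CKO brains and 0 fell, with a median log2 fold change of 0.30, where 0.243% of all genes were called higher. The count was 9 with DESeq2, 1 to 3 when 1 library was left out and 1 in the fit of all 12 libraries. Slc7a3, a transporter of cationic amino acids, averaged 11.0 CPM in CKO brains and 0.989 in control brains (log2 fold change 3.48 ± 0.36, edgeR adjusted p = 0.00594). Asns, asparagine synthetase (0.94 ± 0.13), and the mitochondrial folate enzymes Mthfd2 (0.69 ± 0.12) and Shmt2 (0.66 ± 0.11) were the next by size.

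In neurospheres 10 of 42 rose and 1, the glycine transporter Slc6a9, fell (-1.16 ± 0.25, edgeR adjusted p = 0.0229), with a median of 0.22, where 14.7% of all genes were called higher and 12.0% lower. Mthfd2 (1.34 ± 0.12), the glutamine transporter Slc1a5 (1.12 ± 0.24) and the arginine transporter Slc7a1 (0.90 ± 0.16) led those that rose. The difference of the effects, neurospheres minus brain, was called higher for 4 of the 42 and lower for 6, where 7.21% of all genes had a higher and 6.06% a lower one. The 4 greatest in size were all lower, at -4.18 ± 0.51 for Slc7a3 (edgeR adjusted p = 0.00275), -1.38 ± 0.34 for Slc6a9 (0.0262), -0.88 ± 0.26 for Pck2, mitochondrial PEP carboxykinase (0.0484), and -0.83 ± 0.21 for Asns (0.0278).

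ER chaperones and degradation factors, targets of the ATF6 and XBP1 branches, had 2 of 23 higher in CKO brains, Hspa5 (0.39 ± 0.07, edgeR adjusted p = 0.0429) and Calr (0.29 ± 0.05, 0.0462), and none lower, with 15 at an unadjusted p below 0.05 in the higher direction and 3 called by DESeq2. Neither call remained when any 1 library was left out. Hspa5 encodes BiP, the chaperone that holds PERK inactive. In CKO neurospheres 12 of 23 rose, among them Sdf2l1 (1.04 ± 0.17), Manf (0.75 ± 0.09) and Creld2 (0.72 ± 0.12), and Os9 fell (-0.76 ± 0.15). There 14.7% of all genes were called higher and 12.0% lower. The difference of the effects was called higher in neurospheres for 5 of 24 and lower for 3, against 7.21% and 6.06% of all genes. Examples are Dnajc10 (0.55 ± 0.14, edgeR adjusted p = 0.0282) and Manf (0.42 ± 0.11, 0.0311) on the higher side, and Os9 (-0.83 ± 0.18, 0.0168) and Herpud1 (-0.79 ± 0.22, 0.0367) on the lower.

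Of 16 other eIF2alpha kinases, phosphatase subunits and subunits of eIF2 and eIF2B, edgeR called 0 in brain, with 3 at an unadjusted p below 0.05 and 0 by DESeq2. In CKO neurospheres 5 rose, led by Eif2s1, which encodes eIF2alpha (0.95 ± 0.15, edgeR adjusted p = 0.0126), and Eif2b3 (0.59 ± 0.17, 0.0461). Of the IRE1 and ATF6 branch regulators, 0 of 13 were called in brain, with 2 at an unadjusted p below 0.05 and 0 by DESeq2, and 1, Bak1, rose in neurospheres (0.58 ± 0.09). Of the bZIP partners of ATF4 and CHOP, Jund rose in CKO brains (0.38 ± 0.07, adjusted p = 0.0454), 1 of 13. In neurospheres Cebpd rose (1.38 ± 0.32) and Maf fell (-0.51 ± 0.10), 2 of 14. Over all genes 14.7% were called higher in neurospheres and 12.0% lower. The counts of the branch regulators and of the bZIP partners there were below those shares.

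Downstream of CHOP, 0 of 9 death effectors were called in brain, with 3 at an unadjusted p below 0.05 and 0 by DESeq2. In neurospheres 1 of 10, the BH3-only gene Hrk, fell (-0.91 ± 0.15, edgeR adjusted p = 0.0126). The difference of the effects, neurospheres minus brain, was called for Hrk, 1 of 10 (-1.52 ± 0.22, edgeR adjusted p = 0.00444). Over all genes 6.06% had a lower effect in neurospheres. Around Sesn2 and Ddit4, 0 of 24 mTORC1 regulators were called in brain, with 2 at an unadjusted p below 0.05 and 0 by DESeq2. In neurospheres 4 rose and 2 fell of 25, Rictor by the most (-0.77 ± 0.11), shares near the 14.7% and 12.0% of all genes. Of the glutathione genes that Chac1 belongs with, 0 of 12 were called in brain, with 1 at an unadjusted p below 0.05 and 0 by DESeq2. In neurospheres 2 of 12, Oplah (-0.995 ± 0.27) and Ggt7 (-0.56 ± 0.11), fell. The neurosphere counts of the death effectors and the glutathione genes were near the 12.0% of all genes called lower.

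Lists of other stimuli that raise some members were counted as well. Their neurosphere counts, and that of the paralogs, were near or below the shares over all genes, 14.7% called higher and 12.0% lower. Of 17 p53 targets, a class that includes Sesn2 elsewhere, 0 were called in brain, with 3 higher and 1 lower at an unadjusted p below 0.05 and 0 by DESeq2, and Tigar rose in neurospheres (0.92 ± 0.17), 1 of 19. Of 16 hypoxia-inducible genes 0 were called in brain, with 1 higher and 1 lower at an unadjusted p below 0.05 and 0 by DESeq2, and in neurospheres Higd1a rose (0.66 ± 0.18) while Mxi1 (-1.01 ± 0.28) and Kdm3a (-0.42 ± 0.10) fell. Of 15 immediate early genes Egr1 rose in CKO brains (1.34 ± 0.23, edgeR adjusted p = 0.0429). In neurospheres edgeR called 0 of 15, with 1 at an unadjusted p below 0.05 and 1 by DESeq2. The brain calls of Jund and Egr1 ended when any 1 library was left out. Of 8 tested paralogs of the members, 0 were called in brain by edgeR or DESeq2, with 0 at an unadjusted p below 0.05, and Sesn3 fell in neurospheres (-0.90 ± 0.23, adjusted p = 0.0346).

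The neurosphere list counts rested on single libraries. Without CKO 2, and likewise without control 3, edgeR called 0 genes of any list and 0 of all genes, with 4282 and 4176 genes at an unadjusted p below 0.05. Without control 1 edgeR called 21.1% of 13496 genes higher and 17.7% lower, and without both libraries numbered 1 it called 28.1% of 13328 higher and 27.3% lower. Other ATF4 targets had 10 higher and 5 lower of 42 in the first of these fits, and 15 and 8 in the second. ER chaperones had 13 and 3 of 23, and then 15 and 4. The eIF2 list had 5 and 0 of 16, and then 9 and 1, while the IRE1 and ATF6 regulators had 3 and 0 of 13, and then 5 and 0. The bZIP partners had 8 and 1 of 14, and then 10 and 1. The p53 targets had 13 and 0 of 19, and then 15 and 1, and the immediate early genes 7 and 0 of 15, and then 10 and 1. The mTORC1 regulators had 3 and 5 of 25, and then 6 and 6. Glutathione genes had 1 and 2 of 13, and then 4 and 4 of 11. Of 10 death effectors 2 and 1 were called, and then 3 and 2, and of 8 paralogs 3 and 1, and then 3 and 2. The hypoxia-inducible genes kept counts of 1 and 2, of 18, in both fits.

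**Figure D4:**
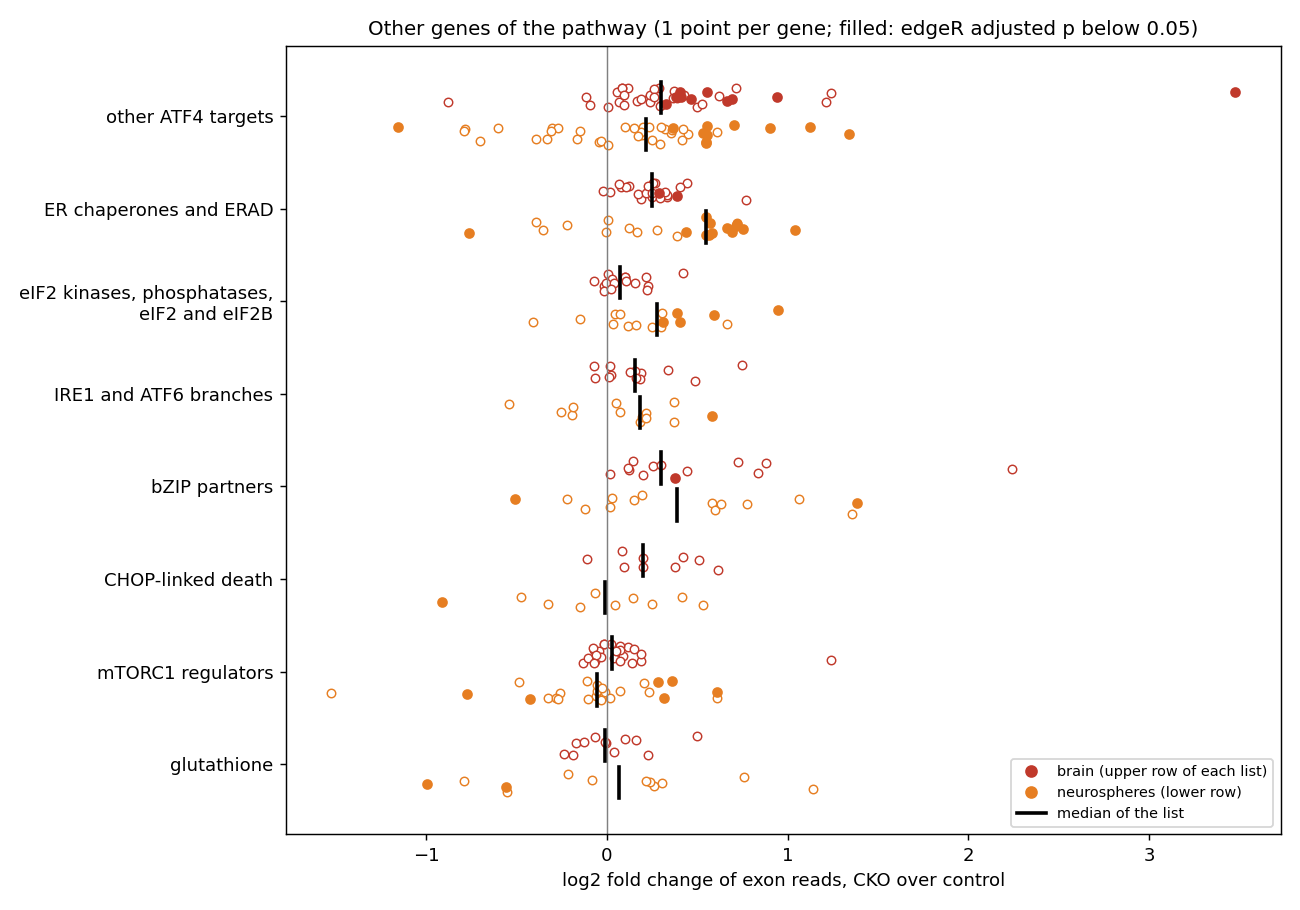
The CKO effect on exon reads of each tested gene in 8 lists, as log2 fold change, with brain in the upper and neurospheres in the lower row of each list. Filled points have an edgeR adjusted p below 0.05 and black bars are medians. Among other ATF4 targets 10 points are filled in each tissue to the right of 0, with Slc7a3 at 3.48 in brain. Among ER chaperones 2 are filled to the right of 0 in brain and 12 in neurospheres. To the left of 0, Slc6a9 and Os9 are filled in the neurosphere rows of these 2 lists.

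The genes whose pattern was most like the mean of the 10 members were ranked by Pearson's r over the 12 libraries. Values were log2 CPM standardised within each tissue, for 12793 other genes with at least 1 CPM on average in both tissues, so the points share library, depth and scaling, and r is a description. The 6 highest were Jdp2, a bZIP repressor related to ATF3 (r = 0.885), Ebag9 (0.860), Septin8 (0.856), the innate immune receptor Tlr2 (0.848), Pck2 (0.844) and Stn1 (0.835). Without control neurosphere 1, r was 0.907 for Jdp2, still the highest, and 0.862 to 0.882 for the other 5, which ranked 2 to 11. Tlr2 averaged 2.83 ± 0.928 CPM in CKO brains and 0.593 ± 0.325 in control brains (SD, n = 3), and Pck2 25.3 ± 2.03 and 15.5 ± 3.10. In neurospheres neither differed beyond the spread, with Tlr2 at 1.45 ± 1.22 in CKO and 1.49 ± 0.170 in control, and Pck2 at 54.6 ± 9.33 and 61.3 ± 11.4. The mean standardised level of the 10 members was above 0 in all 3 CKO brains and below 0 in all 3 control brains. In neurospheres the groups overlapped, at -0.601 to 0.259 in CKO and -0.113 to 0.351 in control. The members were chosen with earlier results known, so the order in brain describes them and is no test.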

How the data were processed

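After extraction with ISOGEN II, ribosomal RNA was removed and libraries were made with the NEBNext Ultra Directional kit, per the labels' protocols. The authors deposited raw read counts per gene (exon, intron, junction and uniquely placed reads), and their own signed fold changes, a score that is negative for a decrease, with p-values and FDR values, in 1 table per tissue. Builds named in the submitters' processing notes are GRCm38 and mm10, although the members' positions in the tables differ from those on GRCm38, and the sources used here do not give the counting tool, its strand setting or its annotation. A further 120 columns of per-sample values in the tables were not used.

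Here exon and intron counts were tested with edgeR 4.0.16 in R 4.3.3 (TMM, filterByExpr, quasi-likelihood F-test, two-sided, Benjamini-Hochberg over all genes tested, threshold 0.05). Each tissue was fitted on its 6 libraries, and the difference of effects and the control comparison on all 12. Alternatives were DESeq2 1.42.0 with its size factors, edgeR with RLE factors, no filter on low counts, junction reads, uniquely placed reads, the fit of all 12 libraries, a replicate block and leaving out each library. Fits without the neurosphere libraries numbered 1, and list counts in other fits, were chosen after seeing the data. On simulated counts the brain and neurosphere exon fits recovered 91.8% and 95.0% of genes changed 2-fold, and the difference 48.0%. The exon minus intron fits recovered 50% in brain and 44.4% in neurospheres. The simulation gave all genes the same spread and no library that stood apart, unlike the neurospheres. These shares are therefore not the recovery in the real libraries. The members and gene lists were chosen with earlier results of these data known. All 10 members are named, and of each other list at most 4 called genes per comparison, by size. Intervals cover counting error only.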

Additional observations from a re-analysis of the deposited data

Results flagged for a closer look

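For 4 genes the CKO effect differed between the tissues by a test of the difference itself, an interaction term in the edgeR fit of 12 libraries. The log2 difference, neurospheres minus brain, was -3.09 for Chac1, -1.43 for Ddit3, -2.40 for Trib3 and -1.36 for Sesn2. The brain effect was called for Chac1 and Sesn2 and not for Ddit3 and Trib3, and edgeR called none of the 4 effects in neurospheres when fitted on those 6 libraries. DESeq2 (-0.64, adjusted p = 0.0229) and the edgeR fit of 12 libraries (-0.64, 0.0143) called Ddit3 lower there. The test of the Sesn2 and Trib3 differences was lost without most single libraries, as given above, while those of Chac1 and Ddit3 were called in each such fit.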

How the results depend on the processing

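Of the values under other settings, 720 for single genes kept their direction and side of the threshold, 56 lost it, 16 gained it and 35 changed direction. The 4 members called higher in brain were 0 with junction reads (log2 fold changes 0.64 for Eif2ak3, 0.67 for Atf4 and 1.61 for Sesn2, with Chac1, at 0 to 5 such reads per library, not tested), 0 in the fit of all 12 libraries, and 0 to 4 when 1 library was left out. The member called higher in neurospheres, Atf4, became 0 with junction reads, 2 (with Eif2ak3) in the fit of all 12 libraries, 4 without both libraries numbered 1, and 0 to 2 when 1 library was left out. The 0 members called lower there became 1 with the replicate block, with DESeq2 and in the fit of all 12 libraries, 2 without both libraries numbered 1, and 0 to 1 when 1 was left out. Over all genes the fit without both libraries numbered 1 called 28.1% higher and 27.3% lower. The fit of all 12 libraries called 2936 of 14415 genes higher and 2812 lower in neurospheres. The 4 lower effects in the difference of the tissues became 2 to 4, and the 2 higher in brain intron reads 0 to 2, when 1 library was left out. Without both libraries numbered 1, neurosphere intron reads gave 1 member called higher and the exon minus intron effect 1 called lower, against 0 each with all 6. The causes were not tested.

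These log2 values changed sign, none of them called with all libraries. In brain exon reads Atf5 was -0.10 with junction reads and -0.12 to 0.81 when 1 library was left out, and Ddit4 -0.30 to 0.039. In neurosphere exon reads Ddit4 was -0.76 to 0.036, and Sesn2 0.0047 with no filter on low counts, 0.090 with the replicate block, 0.51 without both libraries numbered 1 and -0.23 to 0.42 when 1 was left out. The difference for Ddit4 was -0.68 to 0.12. In intron reads Ddit4 was -0.42 to 0.066 in brain and -0.59 to 0.74 in neurospheres, where Ddit3 was -0.18 to 0.092 (0.19 without both numbered 1) and Sesn2 -0.16 to 0.73. The exon minus intron effect in brain was -0.049 to 0.026 for Eif2ak3 (-0.00042 with RLE factors, -0.0042 with no filter), -0.12 to 0.12 for Ddit4 and -0.37 to 1.00 for Chac1. In neurospheres it was -0.15 to 0.21 for Eif2ak3 (-0.033 without both numbered 1), -0.32 to 0.18 for Atf5 and -0.33 to 0.010 for Sesn2.

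Same-numbered libraries deviated together with r = 0.41, 0.207 and -0.03 in brain and 0.259, -0.027 and 0.239 in neurospheres. Differently numbered ones had r = -0.378 to 0.233 in brain and -0.336 to 0.219 in neurospheres. Libraries numbered 1 had the highest r in each tissue, and whether they belong together was not tested. Since 0.207, -0.03 and -0.027 lay within the ranges of differently numbered ones, the numbers were not taken to pair the samples. With the replicate block 108 genes were called higher and 85 lower in brain exon reads, against 33 and 27 without it, and Atf3 (adjusted p = 0.0430), Ddit3 in neurospheres (0.0491) and Chac1 in brain intron reads (0.0339) passed, while the Sesn2 difference of the effects (-1.27, 0.0756) and the Atf3 difference of control neurospheres and brains (0.0843) no longer did. Over all genes the brain exon calls were 55 higher and 55 lower with DESeq2, 11 and 15 with junction reads, and 2 to 12 higher and 1 to 24 lower when 1 library was left out. The neurosphere exon calls, 1958 higher and 1595 lower, were 3740 and 3633 without both libraries numbered 1, 2936 and 2812 in the fit of all 12, and 0 and 0 without CKO 2 or control 3, with 4282 and 4176 genes at an unadjusted p below 0.05. Depth limits Atf3, Trib3 and Nupr1 in brain, where control libraries held 2 to 5 exon reads. It also limits Chac1, with 5 to 15 exon reads in control brains.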

Other observations

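In CKO brains 3 of 8 tested astrocyte markers fell, as did 2 of 13 for radial glia (0.199% of all genes were called lower), while 3 and 5 of them had a positive log2 fold change. In the fit of all 12 libraries 0 of either list were called by edgeR. Fabp7, a lipid-binding protein of radial glia, averaged 141 CPM in CKO brains and 244 CPM in control brains (log2 fold change -0.79 ± 0.08, edgeR adjusted p = 0.00533). Ptprz1, a receptor phosphatase of the same cells, averaged 367 CPM in CKO brains and 538 CPM in control brains (-0.55 ± 0.07, adjusted p = 0.00946). The astrocyte genes Aldh1l1 (-1.10 ± 0.16) and Ndrg2 (-0.92 ± 0.11) fell as well. In CKO neurospheres the neuron gene Dcx (-1.45 ± 0.30) and the oligodendrocyte lineage gene Sox10 (-4.19 ± 0.93) fell, while Col3a1, a fibroblast collagen, rose (4.27 ± 1.21). With all 6 libraries 3 of 8 pericyte and meningeal fibroblast markers were called higher. Without control neurosphere 1 this was 1 of 8, and without both libraries numbered 1 it was 2 of 7. With all 6 libraries 7 of 14 neuron markers and 7 of 10 oligodendrocyte lineage markers were called lower, where 12.0% of all genes were. Without control neurosphere 1 these were 7 of 14 and 8 of 11, against 17.7% of all genes. Without both libraries numbered 1 they were 14 of 14 and 8 of 11, against 27.3%. In both of these fits 1 oligodendrocyte lineage marker was called higher. With all 6 libraries 2 of the 10 had a positive log2 fold change. Without CKO 2 or control 3 the lower counts were 0. Relations of these genes to the PERK-ATF4 genes were not tested.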
